A study of Mus musculus with 16 samples.

Results

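The receptors through which Wnt proteins act were compared between secretory-labelled and unlabelled cells of the mouse colon epithelium. The genes are 8 Frizzled receptors (Fzd1, Fzd2, Fzd4, Fzd5, Fzd6, Fzd7, Fzd8 and Fzd9) and the 2 Wnt co-receptors Lrp5 and Lrp6. They were listed by name as members of these receptor families, with earlier results of these data known, and they are 10 of the 45513 genes in the deposited count files. All 10 passed the filter on low counts.

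RNA was sequenced from 16 libraries of 8 Atoh1(WT)CreERT2; Rosa26 tdTom/+ mice on a C57BL/6 background, aged 8 to 16 weeks and of both sexes. All mice carried a tamoxifen-inducible CreERT2 placed downstream of the Atoh1 coding sequence, homozygous, and all received tamoxifen, which the labels give as 1 mg on each of 3 days. Cre then switches on the tdTom reporter for good in cells that express Atoh1, so the label also stays in the descendants of such cells. From the colon of each mouse, crypt-enriched fractions were pooled and the first fraction released was discarded. Live cells positive for the epithelial surface protein EpCAM were then sorted by the label. The tdTom+ library is treated by the study as secretory and the tdTom− library as absorptive. There was no group without tamoxifen or without Cre, and the tdTom− gate holds every unlabelled epithelial cell type of the pooled fractions.

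Wnt proteins bind the cysteine-rich domain of a Frizzled receptor, a protein that crosses the membrane 7 times, and at the same time an Lrp5 or Lrp6 co-receptor. The complex draws Dishevelled and Axin to the membrane, β-catenin is no longer broken down, and it enters the nucleus to act with TCF factors. Frizzled proteins also take part in planar cell polarity and other β-catenin-independent signals. In the intestine this pathway keeps stem cells and proliferation going at the crypt base, and secreted R-spondins strengthen it by protecting Frizzled receptors from removal.

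Total counts ran from 16482530 to 24218367 in the 8 tdTom+ libraries and from 18318172 to 45791503 in the 8 tdTom− libraries. The tdTom− library of mouse 4 was far the largest, and without it the tdTom− maximum was 20668605. Counts are given per 1e6 counts (CPM) after TMM scaling, and 3 counts correspond to 0.119 to 0.194 CPM in tdTom+ and 0.0583 to 0.163 CPM in tdTom− libraries, which covers counting error only. Atoh1, the gene that carries CreERT2, reached 132 ± 19.3 CPM (SD, n = 8) with the label against 5.70 ± 1.67 CPM (SD, n = 8) without it, and the labelled library was the higher in 8 of 8 mice. All 8 goblet cell markers examined were higher and all 8 absorptive markers lower in tdTom+ cells, while 6 of 7 enteroendocrine and 4 of 6 tested tuft cell markers were lower. Summed marker levels ran from 49189 to 103033 CPM in tdTom+ and from 2229 to 8663 CPM in tdTom− libraries for goblet, and from 424 to 807 against 7456 to 15397 CPM for absorptive cells. They were 219 to 596 against 1221 to 3415 CPM for enteroendocrine and 47.7 to 100.4 against 88.5 to 144 CPM for tuft cells. Of 7 stem cell markers 2 were higher and 5 lower (sums of 1132 to 1403 against 718 to 1207 CPM). Most of this sum was Slc12a2 (950.5 ± 76.7 against 565 ± 113 CPM, SD, n = 8), and the lower markers were Lgr5, Ascl2, Smoc2, Axin2 and Cdca7. Of 7 proliferation genes 3 were lower, and 6 with the mouse as a replicate block (sums of 524 to 830.3 against 638 to 1117 CPM). The block moved the tuft cell count from 4 to 5. General epithelial markers stood at 6908 to 7990.1 against 10277 to 13102 CPM. Counts from mitochondrial genes made up 2.23% to 6.92% of tdTom+ and 3.74% to 9.97% of tdTom− libraries. The part of this difference, and of the other cell types of the tdTom− gate, in the receptor results was not tested. In sorted bulk populations, fewer cells of a type and less RNA per cell cannot be told apart.

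All 10 genes passed the threshold between the populations, an adjusted p under 0.01 by edgeR's quasi-likelihood fit, Benjamini-Hochberg corrected over 15841 genes. Fzd9, Fzd4, Fzd6 and Lrp5 were higher in tdTom+ cells, and Fzd2, Fzd5, Fzd8, Fzd7, Lrp6 and Fzd1 were lower. These counts have to be read against a wide background, since 51.0% of all genes tested passed, 25.5% as higher and 25.5% as lower in tdTom+ cells. The median log2 fold change of the 10 genes was −0.41, against 0.0039 over all genes tested. Each gene differed in the same direction in all 8 mice, which held for 8148 of the 15841 genes tested. The tdTom+ and tdTom− ranges did not overlap for 6 of the 10 (Fzd4, Fzd5, Fzd7, Fzd8, Fzd9 and Lrp6), against 30.5% of all genes tested. Without mouse 4 the counts stayed at 4 higher, 6 lower and 6 with ranges that did not overlap.

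**Figure D1:**
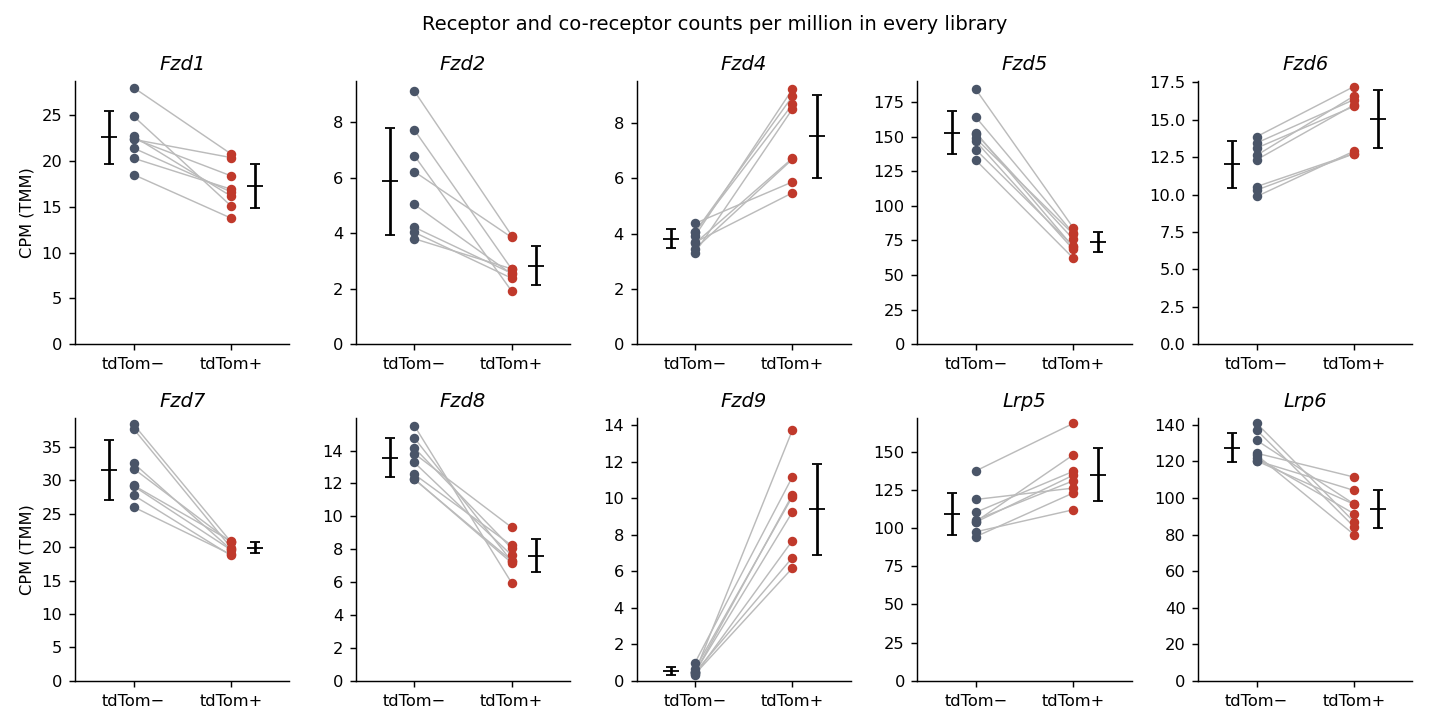
CPM (TMM scaled, linear axes from 0) of the 10 genes in each of the 16 libraries, with grey lines joining the tdTom− and tdTom+ libraries of a mouse and black marks for the mean and SD of 8 mice. Every line rises for Fzd4, Fzd6, Fzd9 and Lrp5 and falls for the other 6 genes.

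Fzd9 stood apart from the other receptors. It is the Frizzled gene closest in sequence to Fzd4 and Fzd10, and its known roles include bone and hippocampus. Fzd9 (ENSMUSG00000049551) is a single-exon gene on the minus strand at chr5:135248938-135251230 of GRCm38. The upstream sequence is shown because Atoh1, the gene that drives the label, encodes a basic helix-loop-helix factor. Proteins of this class bind the E-box CANNTG. That pattern was in 72.3% of all 32851 RefSeq promoter windows, so finding it is not particular to Fzd9. The Fzd9 E-box reads CACGTG, the form CAGCTG was absent from the Fzd9 window, and binding by Atoh1 was not tested. The first line is the stretch of the RefSeq promoter window (GRCm38.p6) that lies upstream of the start of the deposited gene model. The second is a 30-base stretch with the only E-box of the window, in capitals, which lies inside the single exon of that model, so that its letters are transcribed there.
Fzd9 upstream, chr5:135251231-135251297, minus strand: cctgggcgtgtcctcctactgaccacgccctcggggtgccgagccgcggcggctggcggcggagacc
Fzd9 E-box, chr5:135251118-135251147, minus strand: cgctccgggacaCACGTGggcggccgagag

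Fzd9 was detected in every library, with 7 to 21 counts in tdTom− and 113 to 269 counts in tdTom+ libraries. Its level was lowest at 0.350, with a median of 0.473 and a maximum of 1.00 CPM, in tdTom− cells. The corresponding tdTom+ values were 6.18, 9.67 and 13.7 CPM. The lowest tdTom+ library thus lay far above the highest tdTom− library. Fzd9 had a log2 fold change of 4.15 (SE 0.21, adjusted p = 6.93e-13, edgeR), a 17.8-fold difference, and ranked 76 from the top among the 15841 genes tested. Within mice the log2 ratio ran from 3.48 to 4.82. Goblet cell markers were also present in tdTom− libraries, at summed levels of 2229 to 8663 against 49189 to 103033 CPM in tdTom+ libraries. The part of goblet cells in the tdTom− counts of Fzd9, and so in its fold difference, was not tested.

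Fzd4, the receptor of the ligand Norrin as well as of Wnt proteins, was the other Frizzled gene with a clear difference upward, 1.97-fold. It lies on the plus strand at chr7:89404366-89410110 in 2 exon blocks. The 250 bases before its start are shown as the counterpart of the Fzd9 sequence, and they hold no E-box, so no letter is in capitals.
Fzd4 upstream, chr7:89404116-89404365, plus strand: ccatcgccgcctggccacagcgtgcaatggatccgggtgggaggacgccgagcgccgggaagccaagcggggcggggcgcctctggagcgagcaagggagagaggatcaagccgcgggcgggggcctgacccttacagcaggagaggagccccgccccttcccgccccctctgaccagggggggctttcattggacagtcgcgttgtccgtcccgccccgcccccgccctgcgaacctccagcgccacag

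Fzd4 ran from 3.32 to 4.37 CPM in tdTom− libraries, with a median of 3.81 CPM. In tdTom+ libraries it ran from 5.48 to 9.23 CPM with a median of 7.62 CPM, above every tdTom− library. Its log2 fold change was 0.98 (SE 0.12, adjusted p = 3.76e-07, edgeR), and the ratio within a mouse was smallest at 0.43 and largest at 1.36 on the log2 scale.

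Fzd6, which acts mainly in planar cell polarity, differed less. It lies on the plus strand at chr15:39006280-39038186 in 7 exon blocks. Its tdTom− level had a minimum of 9.88, a median of 12.5 and a maximum of 13.9 CPM, and its tdTom+ level a minimum of 12.7, a median of 15.9 and a maximum of 17.2 CPM. These ranges overlapped across the 8 mice. The overlap came from libraries of different mice, since mice 1 to 3 were lower than mice 5 to 8 in both populations. The log2 fold change was 0.32 (SE 0.093, adjusted p = 0.00508, edgeR), and the within-mouse ratios were close together, from 0.27 to 0.39 on the log2 scale. In the fit without a mouse term the adjusted p rose to 0.0121 without mouse 5 and to 0.0125 without mouse 6, past the threshold. With the mouse as a replicate block and all mice kept, the adjusted p of Fzd6 was 0.000111 (edgeR).

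**Figure D2:**
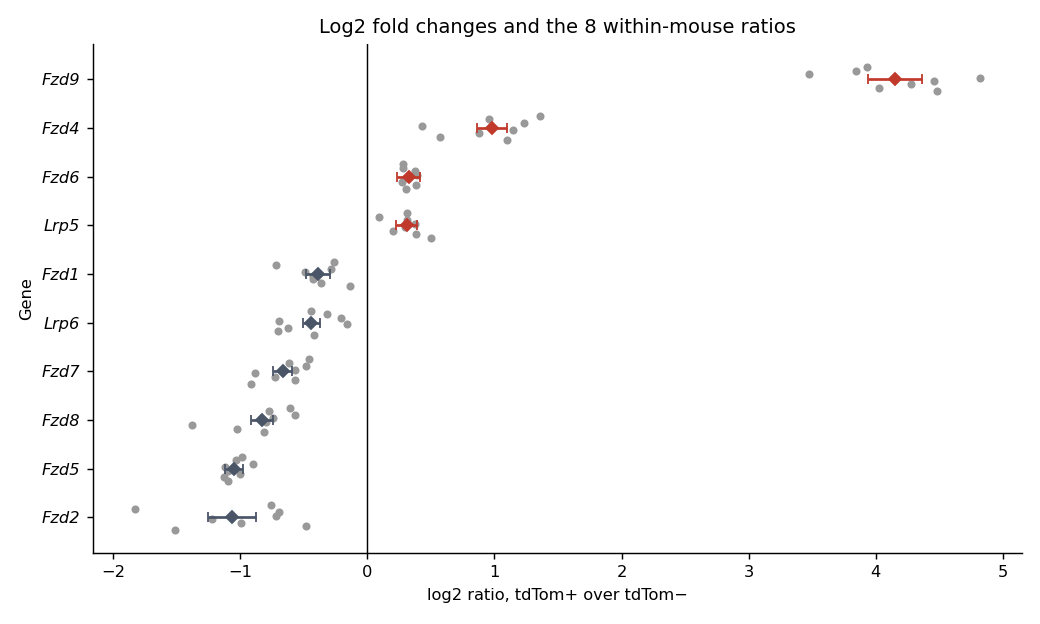
Log2 ratio of tdTom+ over tdTom− for each gene on a linear axis, with diamonds and bars for edgeR's log2 fold change and its SE and grey points for the ratio within each of 8 mice. No grey point of any gene crosses 0, and Fzd9 at 4.15 lies far from the other genes, which range from −1.07 to 0.98.

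Fzd5 was the most abundant Frizzled transcript of both populations and was 2.07-fold lower in tdTom+ cells. It is the Frizzled gene best known in this tissue, since Paneth cells of the small intestine need it to mature. Fzd5 is on the minus strand at chr1:64730558-64737751, in 2 exon blocks. It overlaps the predicted gene Gm38058 on the opposite strand, and the counting used strand. The bases upstream of its start hold an E-box, shown in capitals, that begins at position −20, where −1 is the base before the RefSeq start.
Fzd5 upstream, chr1:64737752-64738000, minus strand: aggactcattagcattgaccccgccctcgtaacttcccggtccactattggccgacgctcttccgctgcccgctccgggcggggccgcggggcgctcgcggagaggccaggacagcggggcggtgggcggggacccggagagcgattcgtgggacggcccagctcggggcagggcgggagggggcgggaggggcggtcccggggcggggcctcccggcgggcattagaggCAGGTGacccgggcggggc

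Fzd5 had 133 CPM in the lowest tdTom− library, 150.4 CPM at the median and 184 CPM in the highest. The tdTom+ libraries had a minimum of 62.2, a median of 73.4 and a maximum of 84.2 CPM. No tdTom+ library came near the tdTom− range. This gave a log2 fold change of −1.05 (SE 0.071, adjusted p = 5.17e-11, edgeR), with the narrowest within-mouse range of the lower genes, from −1.13 to −0.90.

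Fzd8, the gene most like Fzd5 in sequence, was lower as well. It is a single-exon gene at chr18:9212856-9216201 on the plus strand. Its range was 12.3 to 15.5 CPM around a median of 13.5 CPM in tdTom− cells and 5.95 to 9.33 CPM around 7.47 CPM in tdTom+ cells, without overlap. Fzd8 had a log2 fold change of −0.83 (SE 0.085, adjusted p = 3.84e-08, edgeR).

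Fzd1, Fzd2 and Fzd7 form another group of close relatives, each encoded by a single exon. Fzd7 (chr1:59482424-59486955, plus strand) is a Wnt receptor of Lgr5+ stem cells in the intestine. In tdTom+ cells it was the steadiest of the 10 genes, with a coefficient of variation of 4.22% over 8 mice, a minimum of 18.8, a median of 19.8 and a maximum of 20.9 CPM. Every tdTom− library was higher, with 26.0 CPM at the lowest, 30.5 CPM at the median and 38.4 CPM at the highest. Its log2 fold change was −0.67 (SE 0.076, adjusted p = 1.74e-07, edgeR).

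Fzd2 (chr11:102604396-102608058, plus strand), a receptor linked above all to Wnt5a, was lower in tdTom+ cells to about the same extent as Fzd5, with a wider spread than Fzd5. Its tdTom− level ran from 3.80 to 9.11 CPM with a median of 5.62 CPM, and its tdTom+ level from 1.91 to 3.91 CPM with a median of 2.63 CPM. The ranges met only at their ends, and every mouse was lower in tdTom+ cells. Fzd2 differed by a log2 fold change of −1.07 (SE 0.19, adjusted p = 6.95e-05, edgeR), while the within-mouse ratios ran from −1.83 to −0.49. With the replicate block it was −1.03 for Fzd2 and −1.05 for Fzd5, so their order was not the same in both fits. Markers of cells outside the epithelium were also lower in tdTom+ libraries. Their summed level was 5.35 to 9.03 against 8.34 to 15.2 CPM in tdTom− libraries for 8 fibroblast genes, 1.20 to 1.81 against 3.13 to 4.93 CPM for 6 endothelial genes and 6.41 to 10.6 against 10.7 to 20.4 CPM for 7 immune genes. For 5 smooth muscle genes the sums were 3.62 to 5.13 against 4.82 to 6.26 CPM, and for 6 neural and glial genes 0.732 to 2.50 against 1.54 to 4.71 CPM. Some of these markers were near 0, with 5 counts of Col1a2, 2 of Dcn, 0 of Lum, 1 of Cdh5 and 1 of Sox10 over all 16 libraries. Others were detected, with 1396 counts of the immune gene Ptprc and 602 of the endothelial gene Pecam1. Both were lower in tdTom+ cells (log2 fold changes −1.52 and −1.58). The immune gene Itgam, with 1849 counts, did not pass (−0.098, adjusted p = 0.594, edgeR). The fibroblast sum was nearly all Pdgfrb. The part of such cells in the Fzd2 difference was not tested.

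Fzd1 (chr5:4753839-4758035, minus strand) showed the smallest difference of the lower genes. Its tdTom− level was 18.5 CPM at the lowest, 22.4 CPM at the median and 28.0 CPM at the highest, against 13.8, 16.8 and 20.8 CPM in tdTom+ cells. The ranges overlapped, but each mouse had less in its tdTom+ library. The log2 fold change was −0.39 (SE 0.092, adjusted p = 0.00109, edgeR). With the mouse as a replicate block the adjusted p was 4.42e-05 (edgeR).

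The 2 co-receptors, which are large single-pass proteins and can substitute for each other in part, moved in opposite directions. Lrp5 (chr19:3584828-3686564, minus strand, 23 exon blocks), known for its role in bone mass, had 94.4 CPM in the lowest tdTom− library, 105 CPM at the median and 137 CPM in the highest. The tdTom+ values were 112, 133 and 168 CPM. These ranges overlapped, and the highest library of each population came from mouse 4. Lrp5 had a log2 fold change of 0.31 (SE 0.083, adjusted p = 0.00308, edgeR), and without mouse 1 it was 0.28 (adjusted p = 0.0113, edgeR), past the threshold. Both fits had no mouse term. With the mouse as a replicate block and all mice kept, the adjusted p was 2.58e-05 (edgeR).

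Lrp6 (chr6:134446476-134566965, minus strand, 23 exon blocks) is the co-receptor whose loss is the more severe for β-catenin signalling in the embryo. It ran from 120.3 to 141 CPM in tdTom− libraries, with a median of 124 CPM, and from 80.0 to 111 CPM in tdTom+ libraries, with a median of 94.0 CPM. The tdTom+ libraries all lay below the tdTom− libraries. Lrp6 thus differed by −0.44 on the log2 scale (SE 0.065, adjusted p = 5.65e-06, edgeR).

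The numbers of the mice in the sample titles fall into 3 runs, mice 1 to 3, mouse 4 and mice 5 to 8. Whether these runs were handled separately is not given in the sources used here, so each gene was also compared within them. All 10 kept their direction in mice 1 to 3 and in mice 5 to 8, and in mouse 4 every ratio had the sign of the fit. In mice 5 to 8 all 10 passed the threshold. In mice 1 to 3 the log2 fold change of Fzd1 was −0.29 (adjusted p = 0.156, edgeR), that of Fzd6 0.32 (adjusted p = 0.0648, edgeR) and that of Lrp5 0.37 (adjusted p = 0.0231, edgeR), so that these 3 did not pass. With the mouse as a replicate block, which compares the paired libraries of a mouse, Lrp5 passed in mice 1 to 3 (0.37, adjusted p = 0.00398, edgeR) and Fzd1 and Fzd6 did not. The difference of Fzd8 was −1.06 in mice 1 to 3 and −0.66 in mice 5 to 8, and that of Fzd7 −0.75 and −0.53. Whether the runs differ in these values was not tested.

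Levels were then compared between genes, as CPM per kilobase of exon. In tdTom− cells Fzd5 led with 22.1 ± 2.26 (SD, n = 8), followed by Lrp6 with 13.0 ± 0.812 and Lrp5 with 11.2 ± 1.40. Fzd7 (6.97 ± 0.993), Fzd1 (5.39 ± 0.687) and Fzd8 (4.06 ± 0.360) came next, and then Fzd6, Fzd2 and Fzd4 with means from 2.91 down to 1.04. Fzd9 was last, at 0.234 ± 0.0919. In this order the ranges of neighbours did not overlap between Fzd5 and Lrp6, between Lrp5 and Fzd7, between Fzd8 and Fzd6 and between Fzd4 and Fzd9. The ranges of all the other neighbours overlapped.

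In tdTom+ cells the order was Lrp5 (13.9 ± 1.76 CPM per kilobase), Fzd5 (10.7 ± 1.05) and Lrp6 (9.56 ± 1.07). The ranges of Lrp5 and Fzd5 overlapped, and so did those of Fzd5 and Lrp6. Lrp5 was above Fzd5 in 8 of 8 libraries and Fzd5 above Lrp6 in 6 of 8. A close group of Fzd7 (4.40 ± 0.185), Fzd1 (4.12 ± 0.583), Fzd9 (4.09 ± 1.09) and Fzd6 (3.64 ± 0.463) followed, in which the ranges of neighbours overlapped. Fzd9 thus moved from the last place to a level that its neighbours Fzd1 and Fzd6 shared within their spread. Fzd8 (2.28 ± 0.292) and Fzd4 (2.04 ± 0.404) overlapped each other, and Fzd2 was last at 0.769 ± 0.192. Scaling by total counts or by RLE left both orders as they were. Levels of Fzd4 and Fzd8 per kilobase depend on the gene model, since the deposited models hold 3685 and 3346 bases of exon while the longest GENCODE M21 transcripts have 6720 and 5974.

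**Figure D3:**
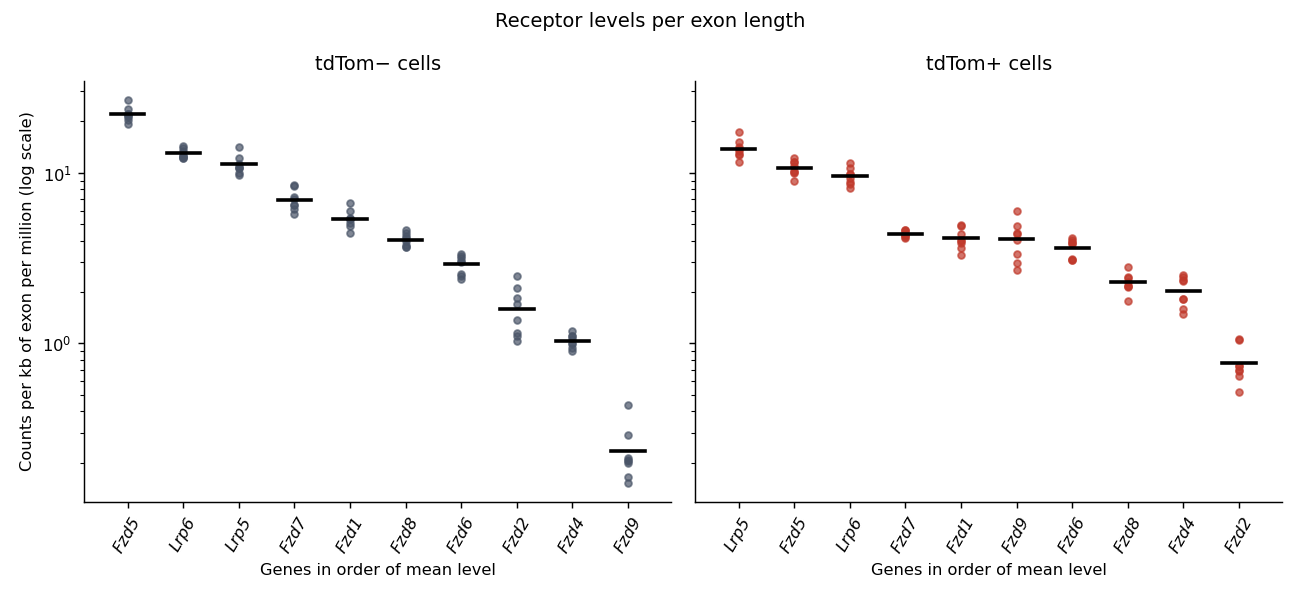
CPM per kilobase of exon (log axis) in the 8 tdTom− and the 8 tdTom+ libraries, with genes in order of their mean and black lines for the mean. Fzd9 is last in tdTom− cells at 0.234 and lies among Fzd1 and Fzd6 in tdTom+ cells at 4.09.

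The sum of the 10 Frizzled genes, Fzd3 and Fzd10 included, was 45.6 ± 2.52 CPM per kilobase in tdTom− and 33.2 ± 1.85 in tdTom+ cells (SD, n = 8), lower in tdTom+ cells of all 8 mice. Fzd5 made up 48.4% ± 3.90 of this sum in tdTom− and 32.3% ± 3.79 in tdTom+ cells. Fzd9 went from 0.518% ± 0.218 to 12.3% ± 3.05. The share of Fzd6 was 6.39% ± 0.928 against 10.9% ± 1.12 and that of Fzd4 2.27% ± 0.228 against 6.12% ± 1.04. Fzd1 held nearly equal shares, 11.8% ± 1.16 and 12.4% ± 1.54, although its level was lower in tdTom+ cells. Shares add up to a fixed total, so a change in one moves the others, and they were not tested.

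**Figure D4:**
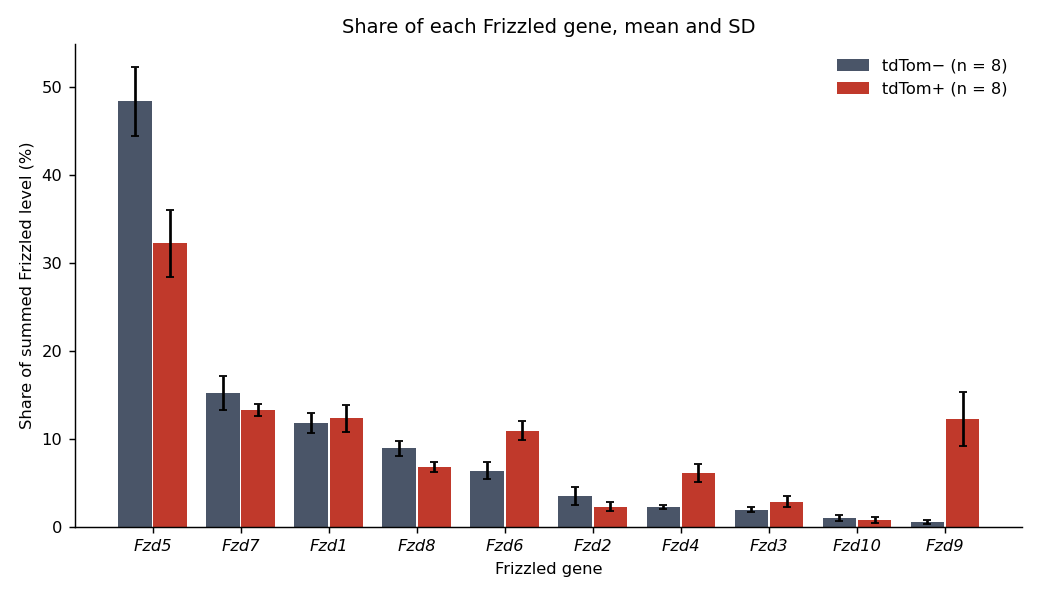
Share of each Frizzled gene in the summed Frizzled level per kilobase, in percent on a linear axis from 0, as the mean and SD of 8 libraries in each population. The Fzd5 bar falls from 48.4% to 32.3% and the Fzd9 bar rises from 0.518% to 12.3% in tdTom+ cells.

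The remaining genes of the Frizzled class showed no common direction. Fzd10 was lower in tdTom+ cells (log2 fold change −0.85, SE 0.23, adjusted p = 0.00335, edgeR), at 0.842 ± 0.305 against 1.503 ± 0.487 CPM. Fzd3, the closest relative of Fzd6, had 4.05 ± 0.942 and 3.76 ± 0.546 CPM and did not pass (log2 fold change 0.11, SE 0.14, adjusted p = 0.523, edgeR). Smo, the Hedgehog signal transducer of the same receptor class, was higher (log2 fold change 0.39, SE 0.085, adjusted p = 0.000488, edgeR).

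Because a ratio of 2 genes within a library does not depend on how libraries are scaled, 5 pairs of related or neighbouring receptors were compared by their log2 ratio of levels per kilobase, with a prior count of 2. The test was an exact two-sided sign-flip permutation test over the 8 mice, whose smallest possible p is 0.0078, with Benjamini-Hochberg adjustment over the 5 pairs. The Lrp6 to Lrp5 ratio was 1.17 in tdTom− cells (0.898 to 1.44 over the libraries) and 0.691 in tdTom+ cells (0.613 to 0.759), lower in 8 of 8 mice. This difference was −0.75 ± 0.27 on the log2 scale (SD, n = 8, exact p = 0.0078, adjusted 0.0195). The Fzd9 to Fzd4 ratio went from 0.249 to 1.97, higher in 8 of 8 mice, a difference of 2.99 ± 0.61 (SD, n = 8, exact p = 0.0078, adjusted 0.0195). Its size depended on the prior count, with 3.15 at a prior count of 0.5 and 2.73 at 5. Fzd9 had only 7 to 21 counts in tdTom− libraries. The raw p-values of these 2 pairs are the smallest the test can give, and they follow from the values of the single genes. Lrp5 was higher and Lrp6 lower in every mouse. The lowest within-mouse log2 ratio of Fzd9 (3.48) was above the highest of Fzd4 (1.36). These p-values thus add no evidence to the results of the single genes.

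Among the genes that were all lower in tdTom+ cells, the ratios differed less. Fzd2 was lower relative to Fzd7 by a log2 difference of −0.35 ± 0.37 (SD, n = 8, exact p = 0.0156, adjusted 0.0260), in 7 of 8 mice. Fzd1 was higher relative to Fzd7, by 0.26 ± 0.26 (SD, n = 8, exact p = 0.0234, adjusted 0.0293), in 7 of 8 mice. With the libraries unpaired, the Fzd2 to Fzd7 difference no longer passed 0.05 (adjusted exact permutation p = 0.0548). For Fzd8 and Fzd5 the difference was 0.22 ± 0.25 (SD, n = 8, exact p = 0.0547, adjusted 0.0547), positive in 7 mice and negative in mouse 3. It was not past 0.05 with all 8 mice, and without mouse 3 it was 0.30 (adjusted exact p = 0.0260).

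**Figure D5:**
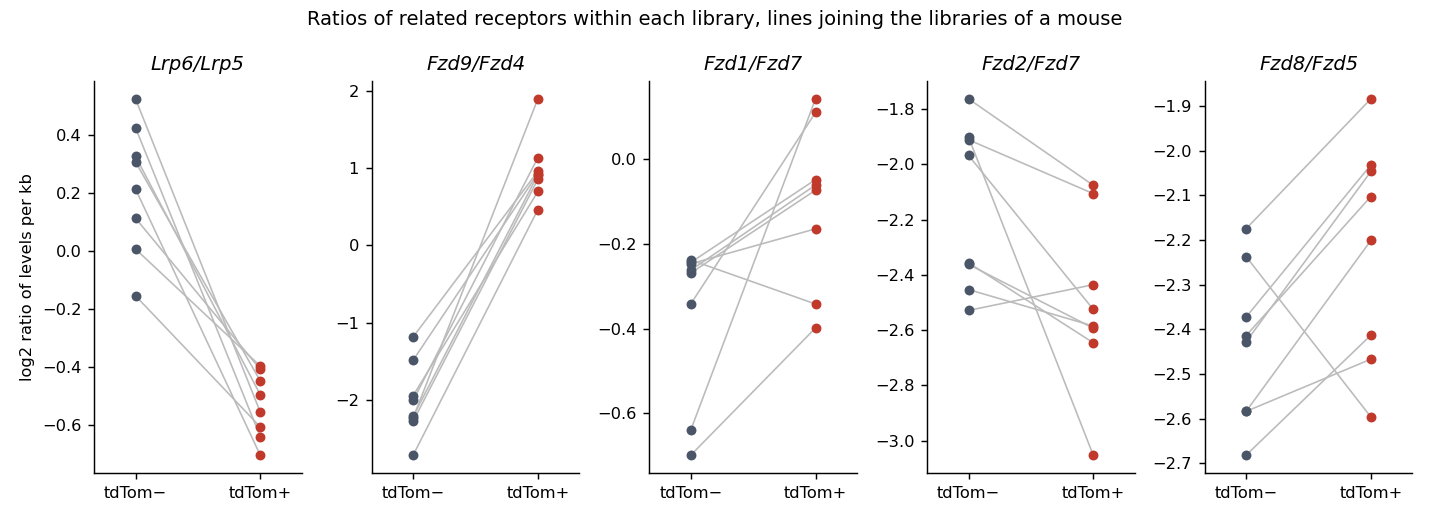
Log2 ratio of the levels per kilobase of 5 gene pairs in every library, with lines joining the libraries of a mouse and a separate linear axis for each pair. All 8 lines fall for Lrp6/Lrp5 and rise for Fzd9/Fzd4, while the other pairs each have a line that runs against the rest.

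The rest of the pathway was examined through 7 lists that hold 95 genes, of which 58 had enough counts. In tdTom+ cells 12 of these were higher and 17 lower at an adjusted p under 0.01, with a median log2 fold change of −0.11. This share is close to that of all genes tested, 25.5% higher and 25.5% lower, which is also the background for the counts of each list below. With the mouse as a replicate block 14 were higher and 21 lower, where 28.4% of all genes tested were higher and 28.9% lower.

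Of 19 Wnt ligands, 2 had enough counts to be tested and both were lower in tdTom+ cells. Wnt5a, which signals mainly without β-catenin, was at 1.61 ± 0.733 against 4.53 ± 1.86 CPM (SD, n = 8, log2 fold change −1.501, adjusted p = 8.35e-05, edgeR). Wnt8b was near its detection limit in tdTom+ cells, with 0.189 ± 0.0935 against 1.34 ± 0.626 CPM (log2 fold change −2.77, adjusted p = 4.70e-07, edgeR). The other 17 ligands had at most 163 counts over all 16 libraries. Among 5 genes for Wnt secretion and receptor folding, 4 were tested. Mesd, the chaperone that Lrp5 and Lrp6 need to leave the endoplasmic reticulum, was higher (61.1 ± 4.41 against 41.7 ± 2.67 CPM, log2 fold change 0.55, adjusted p = 2.00e-08, edgeR), and so was Porcn, which acylates Wnt proteins (0.50, adjusted p = 0.0045, edgeR).

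Of 11 listed R-spondin and receptor turnover genes 6 were tested. In tdTom+ cells 5 were lower and none was higher, against 25.5% of all genes tested in each direction. The list joins R-spondin receptors with genes that remove receptors, so the shared direction is not read as a single result. Lgr4, the main R-spondin receptor of the epithelium, was at 99.4 ± 7.81 against 186 ± 18.7 CPM (log2 fold change −0.90, adjusted p = 2.56e-10, edgeR). Lgr5, the R-spondin receptor of crypt base stem cells, was at 21.7 ± 2.84 against 35.5 ± 6.41 CPM (−0.71, adjusted p = 5.32e-06, edgeR). Kremen1 and Kremen2, which take Lrp6 off the surface together with Dkk proteins, had log2 fold changes of −0.24 and −0.28. Rnf43, a ubiquitin ligase that removes Frizzled receptors, differed by −0.22 (adjusted p = 0.00674, edgeR), and its partner Znrf3 by −0.17 (adjusted p = 0.0719, edgeR), which did not pass. Of 13 secreted antagonists 3 were tested, and Wif1, which binds Wnt proteins, was lower at 0.912 ± 0.334 against 15.1 ± 5.78 CPM (−4.05, adjusted p = 4.79e-11, edgeR).

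The alternative Wnt receptors and planar polarity genes went both ways, with 4 higher and 2 lower of 10 tested. Ror2, a tyrosine kinase receptor of Wnt5a, was higher at 24.0 ± 3.51 against 9.67 ± 1.89 CPM (log2 fold change 1.30, adjusted p = 4.35e-09, edgeR). Celsr1, a cadherin of planar cell polarity, and Ptk7, a pseudokinase receptor, differed by 1.27 and 0.65. Celsr3 and Lrp4, a relative of the Wnt co-receptors, were lower by log2 fold changes of −1.90 and −0.63. Ryk had a log2 fold change of 0.08 (SE 0.058, adjusted p = 0.248, edgeR) and did not pass.

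Inside the cell 3 of 23 tested transduction genes were higher and 6 lower. The TCF factors split, with Tcf7l1, a repressor of Wnt targets in stem cells, at 53.6 ± 8.75 against 25.1 ± 4.27 CPM (log2 fold change 1.10, adjusted p = 1.64e-08, edgeR) and Tcf7l2, the main TCF factor of the gut, at 35.6 ± 4.38 against 63.9 ± 10.2 CPM (−0.84, adjusted p = 1.88e-07, edgeR). Amer1 and Btrc, both of the β-catenin destruction machinery, were higher by 0.69 and 0.41. Ctnnb1, which encodes β-catenin, was lower (−0.32, adjusted p = 2.34e-05, edgeR), as were Axin2 (−0.32) and Dvl1 (−0.28). Of 16 tested target genes 3 were higher, namely Tnfrsf19 (1.81), Sox9 (0.62) and Ephb3 (0.42), and 4 were lower, among them the stem cell genes Ascl2 (−0.79), Lgr5 and Axin2.

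The genes whose log2 CPM followed Fzd9 and Fzd2, the highest and lowest log2 fold changes without a mouse term, most closely over the 16 libraries were looked up among 14645 genes with a mean of at least 1 CPM. For Fzd9 these were Tbc1d30 (Pearson r = 0.994), Ccn3 (0.990) and Dnajc10 (0.990). For Fzd2 they were Isyna1 (r = 0.952), H1fx (0.945) and Cnn3 (0.944). The 16 libraries fall into the tdTom+ and tdTom− populations, and the paired libraries share a mouse, so these values are a description.

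RefSeq promoter windows of 300 bases, 250 before and 50 after the start, were matched for 5 of the 10 genes by symbol, namely Fzd1, Fzd4, Fzd5, Fzd7 and Fzd9. An E-box (CANNTG, which reads as the same pattern on both strands) was found in Fzd5, in Fzd1 at −121 and in Fzd9 at −88, and in 72.3% of all 32851 windows. The E-box CAGCTG, a subset of CANNTG, was in none of the 5 and in 16.3% of all windows. The TCF core CTTTGA, searched on both strands, was found in Fzd1 at −242 and in 5257 of all windows. GC content was 78.0% in Fzd9, 75.7% in Fzd5, 72.7% in Fzd4, 66.7% in Fzd7 and 54.0% in Fzd1, against a median of 52.7%. A match here is a match of letters and was not tested as a binding site.

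Reads of close relatives could be exchanged where their sequences agree over a read. Exact matches among annotated transcripts were searched, and near matches or other genome sequence were not. Of the 50-base words in the GENCODE M21 transcripts of the 10 genes, none was shared between any of the 10. Words shared with any other gene made up 0.722% in Lrp6, 0.120% in Fzd4, 0.0509% in Lrp5 and none in the other 7.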

How the data were processed

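Stranded mRNA libraries of EpCAM+ tdTom+ and EpCAM+ tdTom− colon cells from 8 mice were read as 50-base single ends. The authors aligned reads to GRCm38 with TopHat2 (2.1.1 per the submitters' processing notes) and deposited raw counts per gene, on exons, reverse strand and primary alignments. The file headers name featureCounts 1.5.0-p1, the processing notes Subread 1.5.2. The labels and the study's animal methods, for the secretory signature, give tamoxifen at 1 mg per day on 3 days. The RNA-sequencing methods give 3 mg, with collection on the next day. Small intestinal and 9S/T-A samples are not analysed here.

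The deposited counts were tested with edgeR 4.0.16 (R 4.3.3): filterByExpr, TMM, glmQLFit and glmQLFTest without a mouse term, adjusted p under 0.01. Each SE was worked out as the size of the log2 fold change over the root of F. A prior count of 2 was used for log2 CPM. Symbols came from GENCODE M21, for 44585 of 45513 genes and all 200 list entries. Precision follows total counts of 16482530 to 45791503 per library. The numbers in the titles pair the libraries of a mouse. Deviations from the population means correlated at 0.223 to 0.408 within mice and at most at 0.168 between mice, and every library matched its own partner best.

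The alternatives were a replicate block, DESeq2 1.42.0, limma-voom (limma 3.58.1), RLE and upper-quartile scaling, no filter, 10 counts in every library, an adjusted p of 0.05, each mouse left out, mice 1 to 3 or 5 to 8 only, and for ratios prior counts of 0.5 and 5 and no block. Fits that combined DESeq2 or a run of mice with the block were added after seeing the data. The scripts were tested on simulated data.

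The genes and lists were chosen with earlier results of these data known. Named were the 10 genes, up to 3 called genes of each list in each direction, 8 fixed genes (Axin2, Lgr5, Rnf43, Znrf3, Lgr4, Ctnnb1, Tcf7l2, Ryk) whether called or not, the range of each marker list, and the 3 genes most correlated with the genes of highest and lowest log2 fold change in the fit without a mouse term. Summaries and plots used Python 3.11.15 with scipy 1.17.1, pandas 2.3.3, numpy 2.4.6 and matplotlib 3.10.9.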

Additional observations from a re-analysis of the deposited data

Results flagged for a closer look

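Groups of 8 values were checked for a value far from the rest (Dixon's gap test for 8 values), and 2 of 27 groups had such a value, where 1.35 would be expected by chance. The within-mouse difference of the Fzd8 to Fzd5 log2 ratio was −0.36 in mouse 3, while the other 7 mice lay between 0.12 and 0.38. The tdTom− library of mouse 4 had 45791503 counts against 18318172 to 20668605 in the other 7. Without mouse 4 all 10 receptor genes kept their direction and passed the threshold.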

How the results depend on the processing

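Of 209 log2 fold changes of the 10 genes under the alternatives, 201 kept direction and side of the threshold. Another 8 kept the direction but no longer passed, and 0 changed sign. The alternative of an adjusted p under 0.05 reused the main fit of all 10 genes with a looser threshold. It is counted among the 201 but could not have changed a call. With the mouse as a replicate block (paired libraries), the log2 fold changes ran from −1.05 for Fzd5 to 4.13 for Fzd9, and no receptor changed its call. The block moved the counts to 14 higher and 21 lower pathway genes, 5 lower tuft markers and 6 lower proliferation genes, the last by over 1.5 times. The calls lost were those of Fzd1 (−0.29), Fzd6 (0.32) and Lrp5 (0.37) with mice 1 to 3 only, of Fzd1 (−0.30) and Fzd6 (0.32) with mice 1 to 3 and the block, of Fzd6 without mouse 5 or 6, and of Lrp5 without mouse 1. This left 2 receptors higher and 10 pathway genes lower with mice 1 to 3 only, which are fewer libraries. With at least 10 counts in every library, Fzd9 was not tested. Leaving out each mouse gave −0.42 to −0.34 for Fzd1, −1.13 to −0.97 for Fzd2, 0.93 to 1.06 for Fzd4, −1.06 to −1.02 for Fzd5, 0.32 to 0.35 for Fzd6, −0.69 to −0.61 for Fzd7, −0.87 to −0.76 for Fzd8, 4.05 to 4.31 for Fzd9, 0.28 to 0.34 for Lrp5 and −0.47 to −0.40 for Lrp6. The count of higher receptors then ran from 3 to 4. These fits with a mouse left out had no replicate block. For the ratios, leaving out each mouse gave −0.80 to −0.71 for Lrp6/Lrp5, 0.19 to 0.30 for Fzd8/Fzd5, 0.19 to 0.32 for Fzd1/Fzd7, −0.41 to −0.23 for Fzd2/Fzd7 and 2.83 to 3.11 for Fzd9/Fzd4. Adjusted p for Fzd1/Fzd7 then reached 0.0586 (without mouse 1, 2, 4, 6 or 8) and for Fzd2/Fzd7 0.0521 (without mouse 1, 4, 6 or 8), where the smallest raw p of 7 mice is 0.0156. With mice 5 to 8 only, the ratio differences were −0.69 for Lrp6/Lrp5, 0.093 for Fzd1/Fzd7, −0.44 for Fzd2/Fzd7 and 2.83 for Fzd9/Fzd4, and 4 mice cannot give an exact p below 0.125, so these say nothing on stability. Fzd2/Fzd7 without the block was −0.35. Fzd8/Fzd5 passed 0.05 with a prior count of 5 (0.23) and without mouse 3 (0.30). The cause of these changes was not tested. Depth limits Fzd9 in tdTom− cells, with 7 to 21 counts a library. Most of the 19 Wnt ligands had too few counts to be tested, and 5 of them had 0 counts in all 16 libraries.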
